A study of Mus musculus with 22 samples.

Results

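Homeobox genes encode transcription factors that bind DNA through a homeodomain, and Pax genes encode factors with a paired domain, several of which also carry a homeodomain. In the embryo they mark positions along the body, in limbs, face, somites and organs, and fibroblasts kept in culture retain part of that positional expression. Many work in combination: Meis and Pbx proteins are partners of Hox proteins, sine oculis-type proteins act with Eya and Dach cofactors, and LIM-homeodomain proteins act through Ldb adaptors. This account covers the homeobox genes outside the Hox clusters and the Pax genes, chosen by symbol: the Alx, Barx, Dlx, Emx, Irx, Isl, Lhx, Meis, Meox, Msx, Otx, Pax, Pbx, Pitx, Prrx, sine oculis-type and numbered Nkx genes, with Shox2, Lmx1a, Lmx1b, En1 and En2. The symbols gave 81 genes of the 21032 with a value in any RNA library, by a rule that uses names and no measured value.

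The RNA came from primary mouse embryonic fibroblasts (MEFs) without Lsh (Lsh-/-, KO) and from wild-type MEFs (Lsh+/+, WT), with 2 libraries of each genotype, called KO1, KO2, WT1 and WT2 after their replicate numbers. Lsh, encoded by Hells, is an SNF2-type chromatin remodeller on which normal DNA methylation depends. Both genotypes were C57BL/6 cells taken from the bodies of E13.5 embryos, genotyped, and used at passage 3 to 4; the labels do not say which regions of the body were included. The labels call the libraries biologic replicas and leave unsaid what the numbers stand for, so p-values measure only the spread between these libraries. Levels are in RPKM, that is, reads scaled to transcript length and to the library's mapped reads, and so can be set side by side between genes.

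Hells was listed at 0.430 and 0.550 RPKM in KO1 and KO2, against 0.865 and 1.06 RPKM in WT1 and WT2, so both KO libraries lay below both WT libraries. The difference was -0.55 in replicate 1 and -0.57 in replicate 2 on the log2(RPKM + 0.5) scale, with a mean of -0.56, and did not pass the test (limma, adjusted p = 1.00 with genotype alone and 0.200 with the replicate number added as a term). Depth, read from the whole-read steps of olfactory receptor genes, was 122.5 and 136.1 M (mega) mapped reads in KO1 and KO2 and 132.2 and 176.6 M in WT1 and WT2, so that 1 RPKM in a 2 kb transcript stood for 245 to 353 reads. The libraries were most alike by replicate number: across the genes tested, Pearson's r was 0.980 for KO1 with WT1 and 0.983 for KO2 with WT2, against 0.897 for KO2 with KO1 and 0.893 for WT2 with WT1. The replicate 1 files held 26886 transcript rows and the replicate 2 files 21136, so the files also differ by number in what they list. Because of this KO minus WT differences of named genes are also given within each number. Gapdh was listed at 0.298 and 0.179 RPKM in KO1 and KO2 and at 0.160 and 0 RPKM in WT1 and WT2, so a value at or near 0 is a listing and not evidence of silence.

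Fibroblast markers identified the cells: 10 of 10 reached 1 RPKM, with summed levels of 2905 and 3233 RPKM in KO1 and KO2 and 2696 and 3242 RPKM in WT1 and WT2. Markers of other cell types were low but not constant. The 12 macrophage and blood markers summed to 8.35 and 86.2 RPKM in KO1 and KO2, against 60.5 and 176 RPKM in WT1 and WT2, and none of them was at 0 everywhere. The 8 epithelial markers summed to 5.82 and 4.71 RPKM in the KO libraries, against 15.5 and 15.6 RPKM in the WT libraries, with Esrp1 at 0. The 7 listed neural crest and melanocyte markers summed to 16.9 and 17.8 RPKM in KO2 and WT2, against 3.80 and 4.19 RPKM in KO1 and WT1, with Dct and Tyr at 0. The 10 listed neural markers ran the other way, at 27.01 and 23.7 RPKM in KO2 and WT2 and 98.6 and 99.9 RPKM in KO1 and WT1. Most of the neural sum was Nes, and Sox1, Elavl3, Rbfox3, Neurod1 and Olig2 stayed below 0.1 RPKM. The 8 skeletal myoblast markers summed to 16.9 and 52.3 RPKM in KO1 and KO2 and to 44.3 and 43.9 RPKM in WT1 and WT2, with Myf6 at 0. The part of these cell type markers in the results below was not tested.

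Lsh acts on DNA methylation, which falls on CG dinucleotides, so the 250 bases before the start are shown for 4 of the genes named below. Prrx1 and Prrx2 are close relatives among the highest of the set. Within each replicate number their KO libraries lay on opposite sides of WT, and neither gene passed the test. Dlx2 is a gene lower in the replicate 2 libraries, and Meox2 is a gene nearly undetected in the replicate 1 libraries. Pitx1, Dlx5 and Meox1 had no promoter entry and are not shown. The sequences are RefSeq's for the build GRCm38.p6, 5′ to 3′ on the gene's own strand, with every CG in capitals.
Prrx1 (chr1:163313651-163313900, minus strand): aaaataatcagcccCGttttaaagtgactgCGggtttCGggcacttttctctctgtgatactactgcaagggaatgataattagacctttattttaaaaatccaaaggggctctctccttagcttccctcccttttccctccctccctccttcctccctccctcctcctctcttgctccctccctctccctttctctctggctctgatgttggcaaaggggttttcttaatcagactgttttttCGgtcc
Prrx2 (chr2:30845117-30845366, plus strand): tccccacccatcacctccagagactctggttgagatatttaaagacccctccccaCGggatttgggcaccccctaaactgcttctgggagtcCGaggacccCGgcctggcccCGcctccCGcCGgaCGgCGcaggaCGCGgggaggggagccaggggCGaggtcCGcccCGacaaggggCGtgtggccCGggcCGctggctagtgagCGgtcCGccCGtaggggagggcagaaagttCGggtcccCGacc
Dlx2 (chr2:71546755-71547004, minus strand): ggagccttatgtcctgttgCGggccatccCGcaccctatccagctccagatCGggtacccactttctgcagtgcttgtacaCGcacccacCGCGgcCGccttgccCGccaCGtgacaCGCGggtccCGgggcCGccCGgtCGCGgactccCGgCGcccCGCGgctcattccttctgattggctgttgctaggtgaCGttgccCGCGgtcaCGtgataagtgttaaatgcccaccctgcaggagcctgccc
Meox2 (chr12:37108290-37108539, plus strand): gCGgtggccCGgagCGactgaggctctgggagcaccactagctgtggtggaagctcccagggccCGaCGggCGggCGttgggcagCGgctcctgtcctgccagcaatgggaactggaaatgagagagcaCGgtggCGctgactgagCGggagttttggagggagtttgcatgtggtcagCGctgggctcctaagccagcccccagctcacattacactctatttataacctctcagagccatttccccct
The window of Prrx1 holds 4 CG and is 47.6% G and C, whereas that of Prrx2 holds 21 CG at 70.0%, that of Dlx2 holds 24 at 66.4% and that of Meox2 holds 12 at 62.0%. The letters CG, which read the same on both strands, occur at least once in 93.2% of the 14136 gene promoters of this length available, with a median of 11 CG. The number of CG ranged from 4 to 40 over the 56 of 81 homeobox and Pax genes with an entry; as these are under 80% of the genes, no comparison of promoter composition over the set was made. No methylation was measured in these libraries.

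A minority of these genes was expressed in the fibroblasts, led by those of limb, face and body-wall mesenchyme. Of the 81, 22 reached at least 1 RPKM in all 4 libraries and 26 at least 0.5 RPKM, while 33 stayed below 0.1 RPKM in every library that lists them. There were 34 that met the minimum for testing (0.5 RPKM in at least 2 libraries), 38 that were listed in all 4 libraries but fell short of it, and 9 without a row in the replicate 2 files. The last group, Emx1, Irx4, Lhx3, Nkx1-2, Nkx2-4, Otx2, Pax4, Pax5 and Six6, was at 0 in both replicate 1 libraries except Lhx3, at 0.0069 RPKM in WT1. Testable genes were frequent among paired-like genes (8 of 11), TALE genes (10 of 13), sine oculis-type genes (4 of 6) and Meox genes (2 of 2), and less frequent among the Msx, Dlx, Barx, Emx and En genes (7 of 15), LIM genes (2 of 12), Pax genes (1 of 9) and Nkx genes (0 of 13); these shares were not compared by a test.

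**Figure D1:**
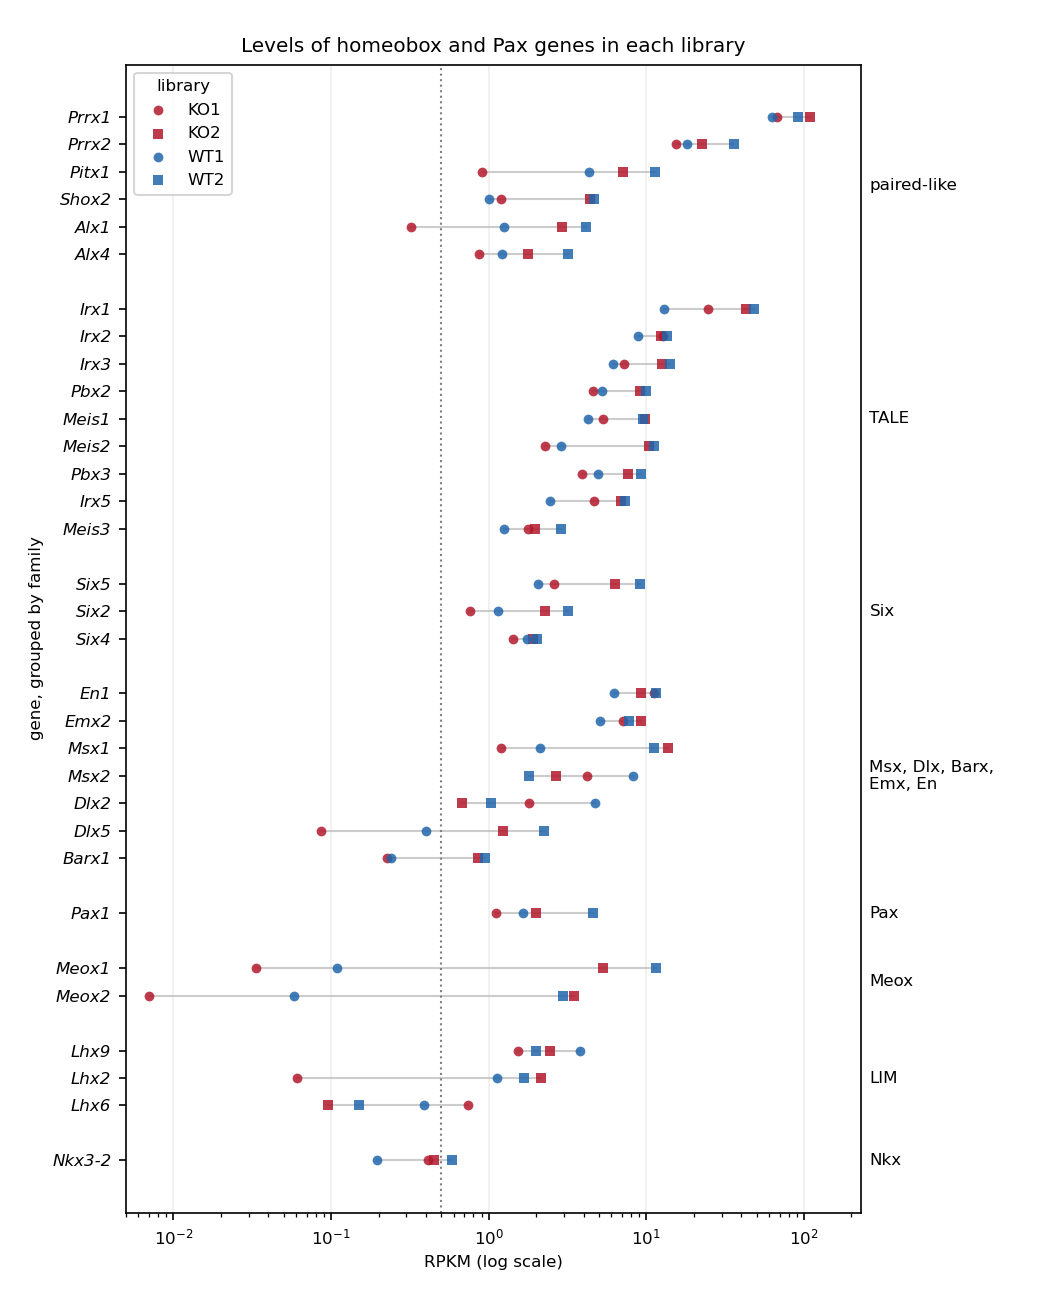
RPKM in each library (log axis) of 30 of the 34 testable homeobox and Pax genes and of Lhx6 and Nkx3-2, grouped by family; red is KO, blue is WT, circles are replicate 1 and squares replicate 2, the grey line spans the libraries and the dotted line marks 0.5 RPKM. Prrx1 lies highest, between 62.7 and 109 RPKM, and in most genes the squares lie to the right of the circles.

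The paired-like genes held the highest level of all. Prrx1, a factor of limb and craniofacial mesenchyme (mm9 chr1:165175251-165243782, minus strand), was at 67.2 and 109 RPKM in KO1 and KO2 and at 62.7 and 91.8 RPKM in WT1 and WT2. Its relative Prrx2, which overlaps it in function in the limb and face, was at 15.5 and 22.5 RPKM in KO and at 18.2 and 36.2 RPKM in WT cells. The lowest Prrx1 library thus lay above the highest library of every other gene of the set, the nearest being Irx1 at 47.9 RPKM. Pitx1, a determinant of hindlimb identity, was at 0.904 and 7.15 RPKM in KO cells and at 4.30 and 11.4 RPKM in WT cells. Pitx1 was thus lowest in KO1 and highest in WT2, and the genotypes overlapped. Alx1 and Alx4, which pattern frontonasal and limb mesenchyme, and Shox2, needed for the proximal limb skeleton, lay between 0.321 and 4.67 RPKM over all libraries. Otx1, a forebrain gene, and Pitx3, a gene of the lens and of dopamine neurons, stayed below 0.1 RPKM.

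TALE genes, whose homeodomain has an extended loop, were broadly present. Irx1, a patterning gene of the Iroquois family, was second in the set at 24.7 and 42.9 RPKM in KO1 and KO2 and 13.03 and 47.9 RPKM in WT1 and WT2. Irx1 overlapped Prrx2 in range, so the order of these genes is not separated beyond the spread between libraries. The Hox partners Pbx2, Pbx3, Meis1 and Meis2 ranged from 2.27 to 11.2 RPKM. Pbx4, a testis gene, reached at most 0.328 RPKM. Irx2 and Irx3 were at 6.12 to 14.1 RPKM over all libraries and Irx5 at 2.44 to 7.32 RPKM, whereas Irx6 reached at most 0.019 RPKM and Irx4, a gene of the heart ventricle, was listed at 0.

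Among the sine oculis-type genes, Six4, Six5 and the nephron progenitor gene Six2 lay between 0.755 and 9.18 RPKM, while Six3 and Six6, genes of forebrain and eye, were at most 0.0040 RPKM. En1, which marks the midbrain-hindbrain boundary, ventral limb ectoderm and a dermal fibroblast lineage, was at 11.3 and 9.28 RPKM in KO and 6.22 and 11.5 RPKM in WT cells. Emx2, needed for cortex and the urogenital tract, was at 7.06 and 9.23 RPKM in KO and 5.10 and 7.71 RPKM in WT cells. Neither gene separated the genotypes. Pax1, a sclerotome gene, was the Pax gene with the highest level, at 1.12 and 2.00 RPKM in KO and 1.64 and 4.59 RPKM in WT cells. Pax9, its close relative in the sclerotome, was at 0.333 and 0.268 RPKM in KO and 0.1499 and 0.484 RPKM in WT cells. Pax3, of the dermomyotome and neural crest, was at 0.315 and 0.059 RPKM in KO and 0.084 and 0.042 RPKM in WT cells, and the kidney, brain and eye genes Pax2, Pax6 and Pax8 stayed below 0.1 RPKM. The LIM genes that could be tested were Lhx2, of forebrain and limb mesenchyme, and Lhx9, of gonad and limb, both below 4 RPKM. Lmx1b, which specifies the dorsal limb, reached 0.494 RPKM at most. Of the Nkx genes, the skeletal gene Nkx3-2 came highest, at 0.409 and 0.450 RPKM in KO and 0.195 and 0.587 RPKM in WT cells, and the heart gene Nkx2-5 and the lung and thyroid gene Nkx2-1 stayed below 0.1 RPKM.

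Relatives that lie side by side on a chromosome were read at different levels (gaps in mm9, genes of this set only). On chromosome 13, Irx1 and Irx2 lie 665 kb apart and averaged 32.1 and 11.9 RPKM over the 4 libraries, and Irx4, 626 kb from Irx2, was listed at 0. On chromosome 8, Irx3 and Irx5 lie 556 kb apart and averaged 9.97 and 5.33 RPKM, against 0.0078 RPKM for Irx6 a further 313 kb away. Both Iroquois clusters thus had a pair of expressed genes and another at or near 0. On chromosome 17, Six2 averaged 1.84 RPKM and Six3, 58.1 kb away, 0.0015 RPKM. The Dlx genes come in close pairs that are often expressed together in branchial arches and forebrain. Here, Dlx2 averaged 2.05 RPKM and Dlx1, 9.43 kb away, 0.130 RPKM, while Dlx5 averaged 0.988 RPKM and Dlx6, 9.84 kb away, 0.0472 RPKM. Dlx3 and Dlx4, 15.2 kb apart, both stayed below 0.12 RPKM.

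**Figure D2:**
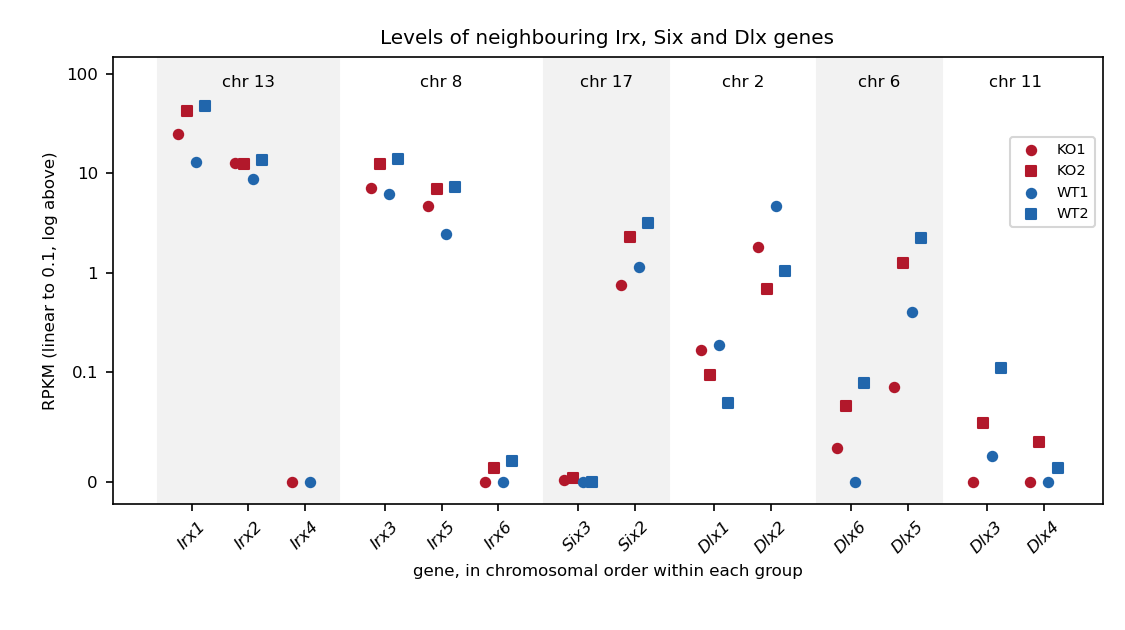
RPKM (linear to 0.1, log above) of neighbouring Irx, sine oculis-type and Dlx genes, in chromosomal order within each group; red is KO, blue is WT, circles are replicate 1 and squares replicate 2, and Irx4 has replicate 1 values alone. In the groups other than Dlx3 and Dlx4, a gene above 0.5 RPKM in at least 2 libraries lies next to a relative at least 5 times lower on average.

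In KO minus WT, no homeobox or Pax gene passed the test. More of the testable genes lay below WT than above it in both replicate numbers, as a description with no test of the set. With genotype as the only term limma called 0 of the 34 testable genes, against 0 of 11147 genes overall (0.0% higher, 0.0% lower); at an unadjusted p below 0.05 the counts were 0 of 34, against 31 genes higher (0.278%) and 10 lower (0.0897%) overall. With the replicate number added it also called 0 of the 34, against 42 genes higher (0.377%) and 33 lower (0.296%) overall. In that fit 11 of the 34 were lower at an unadjusted p below 0.05 (32.4%, against 4.93% of all genes tested) and 0 were higher (against 4.17%). Among the 11 were Alx1, Alx4, Dlx2, Dlx5, Meox1, Pax1, Pitx1, Prrx2 and Six2, and the adjusted p-values of the 11 over all genes were between 0.149 and 0.538. In bulk RNA, fewer cells of a type and less RNA per cell cannot be told apart.

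Within the replicate numbers, 17 of the 34 lay below WT in both (50%, against 31.4% of all genes tested) and 3 above in both (8.82%, against 22.5%). The 3 were Emx2, Meis1 and Prrx1. The other 14 changed side between the numbers: En1, Irx1, Irx2, Irx3, Irx5, Meis3, Shox2 and Six5 were higher in KO1 and lower in KO2 than their WT libraries, and 6 genes, among them Lhx2, Lhx9, Meox2, Msx1 and Msx2, the reverse. All 4 testable Irx genes were thus of the first kind. The counts of 17 and 3 also held after median-ratio scaling, in which Barx1 left the lower group and another gene joined it, against 27.3% and 27.8% of all genes. No gene of the set had both KO libraries below both WT libraries (7.32% of all genes) or both above (6.1%). The median KO minus WT difference of the 34 was -0.20 on the log2 scale, beside -0.02 for all genes tested. It was -0.23 in replicate 1 (all genes -0.07) and -0.16 in replicate 2 (all genes 0.02). With genotype alone the median was 0.31 without KO1, 0.43 without WT2, -0.72 without KO2 and -0.84 without WT1. In each of these fits a genotype is left with a single replicate number. The values therefore include part of the difference between numbers and cannot show how firm the sign is. By family, 6 of 8 paired-like genes, 3 of 4 sine oculis-type genes and 3 of 10 TALE genes lay below WT in both numbers.

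**Figure D3:**
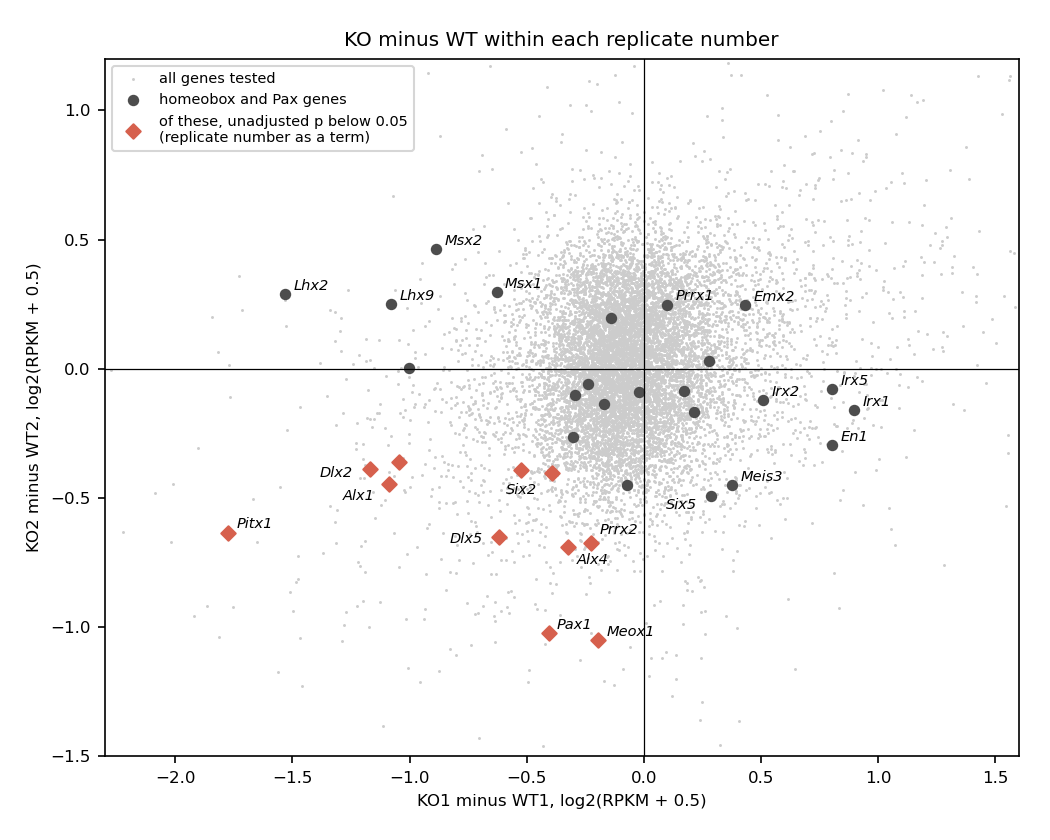
KO1 minus WT1 (horizontal axis) and KO2 minus WT2 (vertical axis), both as differences of log2(RPKM + 0.5), for the 34 testable homeobox and Pax genes (dark points and red diamonds) and all genes tested (grey; 76 of 11147 lie outside the axes). The 11 red diamonds, with an unadjusted p below 0.05 when the replicate number is a term, all lie at the lower left, where KO is below WT in both numbers, and none of them passed adjustment over all genes.

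Differences of at least 1.5-fold on the same scale in both numbers were found for Pitx1 and Dlx5, which were lower in KO cells (2 of 34, against 0.825% of all genes), and for 0 genes in the other direction (against 0.816%). Pitx1 (mm9 chr13:55926416-55932787, minus strand), with the levels given above, differed by -1.77 in replicate 1 and -0.63 in replicate 2. Its mean difference was -1.20 with SE 0.28 (limma with the replicate number, adjusted p = 0.167). Among the settings tried it passed the threshold under quantile normalization with the replicate number (limma, -1.16, SE 0.22, adjusted p = 0.0333) and in no other. Without KO1 the Pitx1 difference with genotype alone was 0.018, a value that also includes part of the difference between numbers. Dlx5, a gene of branchial arches and developing bone (mm9 chr6:6827806-6832069, minus strand), was at 0.086 and 1.24 RPKM in KO1 and KO2 and at 0.399 and 2.23 RPKM in WT1 and WT2. KO was lower in both numbers, by 0.62 and 0.65 on the log2 scale (mean -0.63, SE 0.16, adjusted p = 0.149 in the same fit), although KO2 lay above WT1. In replicate 2 the gap came from 1 of its transcript rows, at 0.234 RPKM in KO2 against 1.16 RPKM in WT2, while the other was at 1.01 and 1.07 RPKM; with the transcript row of the highest mean alone, the mean difference was -0.33. With genotype alone it was 0.15 without KO1 and 0.17 without WT2, again with part of the difference between numbers included.

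The other genes with the lowest p-values had similar within-number differences. Alx1 was at 0.321 and 2.92 RPKM in KO1 and KO2, against 1.24 and 4.16 RPKM in WT1 and WT2 (-1.09 in replicate 1 and -0.45 in replicate 2, mean -0.77, SE 0.20, adjusted p = 0.161 in the limma fit with the replicate number). Dlx2, of branchial arches and forebrain, was at 1.81 and 0.677 RPKM in KO, against 4.69 and 1.04 RPKM in WT cells (-1.17 in replicate 1 and -0.39 in replicate 2, mean -0.78, SE 0.22, adjusted p = 0.195 in the same limma fit). Pax1 differed by -0.41 in replicate 1 and -1.02 in replicate 2, with a mean of -0.72 and SE 0.20 (adjusted p = 0.195 in the same limma fit). Each of these 3 genes was lower in KO within both numbers, and in each of them the ranges of the genotypes overlapped. Prrx2 lay below WT in both numbers (-0.22 and -0.67) and Prrx1 above it (0.10 and 0.25), with neither past adjustment (limma with the replicate number, adjusted p = 0.440 and 0.858); the difference between these relatives was not tested. Beside these values stand the macrophage, epithelial, neural crest and kidney marker sums, which were also lower in KO within both numbers. The neural crest sum was at 3.80 and 16.9 RPKM in KO1 and KO2, against 4.19 and 17.8 RPKM in WT1 and WT2. The kidney sum was at 9.42 and 29.99 RPKM in KO1 and KO2, against 9.98 and 38.8 RPKM in WT1 and WT2. Krt19, a keratin in the epithelial sum, was at 3.56 and 2.70 RPKM in KO, against 13.4 and 9.78 RPKM in WT cells. It differed by -1.78 in replicate 1 and -1.68 in replicate 2 (mean -1.73, SE 0.17, adjusted p = 0.0019 in limma with the replicate number). Krt19 made up most of the epithelial sum in every library, and the other epithelial markers together were not lower in KO within replicate 1. The part of macrophages and of epithelial, neural crest and kidney cells in the homeobox and Pax values was not tested.

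Differences between the replicate numbers were larger than those between the genotypes, and most of these genes were higher in replicate 2. Replicate 2 minus replicate 1, fitted with genotype as a second term, was higher for 26 of the 34 genes (76.5%, against 35.8% of all genes tested) and lower for 2 (5.88%, against 11.9%), at an adjusted p below 0.05 in limma. Both replicate 2 libraries lay above both replicate 1 libraries in 29 genes (53.3% of all genes tested) and below them in 2 (21.2%). A difference of at least 2-fold upward in both genotypes was seen in 12 genes (9.22% of all genes tested), and downward in 0 (3.36%). The minimum for testing bears on these counts, since 5 of the genes, among them Barx1, Dlx5, Meox1 and Meox2, reached 0.5 RPKM in the replicate 2 libraries alone. Among the 26 genes at 0.5 RPKM or more in all 4 libraries, 19 rose in replicate 2 (73.1%, against 31.5% of all genes at that level) and 2 fell (7.69%, against 12.2%).

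Part of this shift is shared by all genes: the median of all genes tested was 0.25 on the log2 scale and that of the 34 was 0.96. Median-ratio scaling brought the median of all genes to 0.0042 and that of the 34 to 0.72, with 21 higher (61.8%) and 2 lower. Under this scaling 22.9% of all genes were higher and 21.3% lower, where the unscaled values gave 35.8% and 11.9%. The genes no longer called higher after it were Emx2, Irx1, Irx5, Prrx1 and Prrx2. Quantile normalization left 22 higher (64.7%) and 2 lower, with 20.8% of all genes higher and 20.7% lower. The direction of Irx2 turned under the first scaling and that of Six4 under the second; neither had passed the test.

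**Figure D4:**
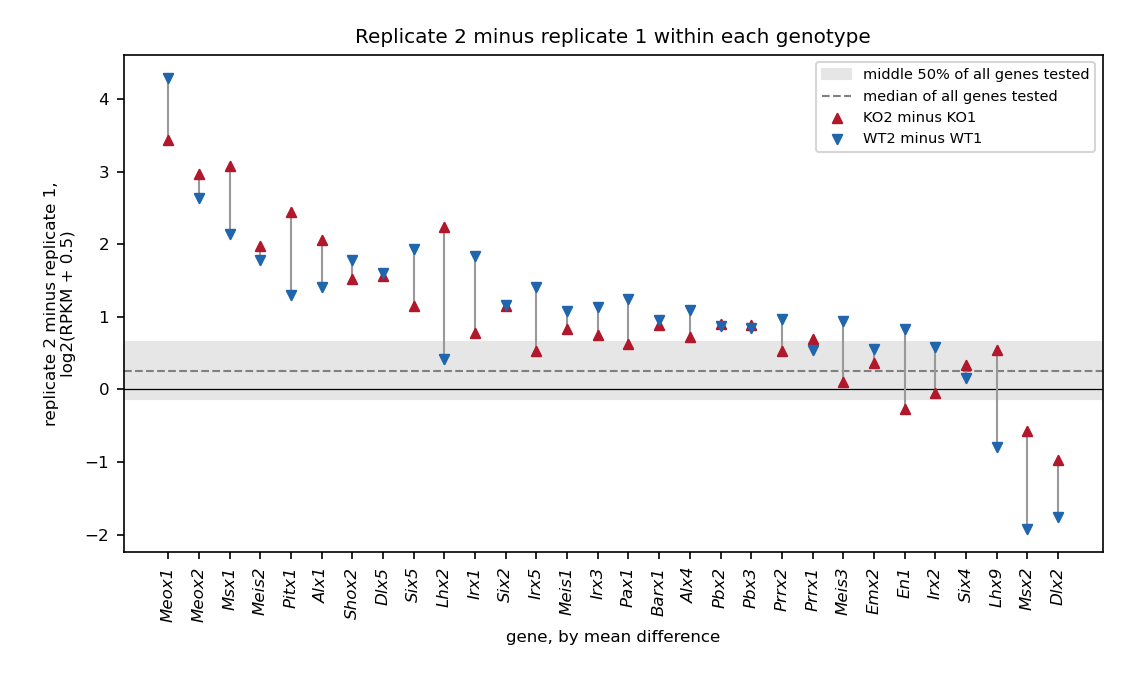
Replicate 2 minus replicate 1 within KO (red, pointing up) and within WT (blue, pointing down), as differences of log2(RPKM + 0.5), for 30 of the 34 testable genes in order of their mean difference; the dashed line is the median of all genes tested (0.25) and the grey band their middle 50%, from -0.13 to 0.66. Of the 30 mean differences, 21 lie above the band and 2, Msx2 and Dlx2, below it.

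The largest differences were in the Meox genes, which are somite factors. Meox1 was at 5.28 and 11.5 RPKM in KO2 and WT2, against 0.033 and 0.110 RPKM in KO1 and WT1. Meox2 was at 3.47 and 2.96 RPKM in KO2 and WT2, against 0.0070 and 0.058 RPKM in KO1 and WT1. Both genes were nearly unread in replicate 1 and expressed in replicate 2, in either genotype. They met the minimum for testing through the replicate 2 libraries alone, so their difference is a description and no p-value is given. Msx1, a target of BMP signalling in limb and face, was at 13.8 and 11.1 RPKM in KO2 and WT2, against 1.197 and 2.12 RPKM in KO1 and WT1. Its close relative Msx2 ran the other way, at 2.66 and 1.79 RPKM in KO2 and WT2, against 4.21 and 8.21 RPKM in KO1 and WT1. The Msx genes thus moved in opposite directions, by 2.61 (SE 0.23, adjusted p = 4.7e-05) and -1.25 (SE 0.34, adjusted p = 0.030) in limma. The Msx2 call was lost without KO2 (adjusted p = 0.098) and without WT2 (0.201), in limma with the number as the only term. Bmp4, a ligand upstream of Msx genes, was at 27.8 and 30.03 RPKM in KO2 and WT2, against 1.15 and 5.10 RPKM in KO1 and WT1. Its extracellular antagonist Grem1 was at 9.75 and 8.39 RPKM in KO2 and WT2, against 50.6 and 56.7 RPKM in KO1 and WT1. Another BMP antagonist, Nog, was higher in both replicate 2 libraries than in both replicate 1 libraries, and the BMP receptor gene Bmpr1b was lower. The part of BMP signalling in the Msx values was not tested.

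Among the Dlx genes, Dlx2 fell to 0.677 and 1.04 RPKM in KO2 and WT2, against 1.81 and 4.69 RPKM in KO1 and WT1 (-1.36, SE 0.22, adjusted p = 0.00067 in limma). This call was lost in limma with the number as the only term (adjusted p = 0.062), also without KO2 (0.237) or without WT2 (0.166). Dlx5 was at 1.24 and 2.23 RPKM in KO2 and WT2, against 0.086 and 0.399 RPKM in KO1 and WT1; it met the minimum through replicate 2 alone, and its difference is likewise a description. Meis2 rose by 1.88, Pitx1 by 1.88, Alx1 by 1.74, Shox2 by 1.65 and Six5 by 1.54 on the log2 scale. The Pitx1 call was lost with the number as the only term (limma, adjusted p = 0.157), where the set held 23 calls in place of 28. All 8 testable paired-like genes were called higher, as were 8 of 10 TALE genes and 3 of 4 sine oculis-type genes, against 35.8% of all genes tested. Meis2 shows how closely the genotypes followed each other, at 10.4 and 11.2 RPKM in KO2 and WT2, against 2.27 and 2.89 RPKM in KO1 and WT1. Genes whose differences did not pass in either direction were En1, Irx2, Lhx2, Lhx9, Meis3 and Six4. Below the minimum for testing, 19 genes were higher in replicate 2 in both genotypes and 7 lower. The 7 were Dlx1, Lhx4, Lhx5, Lhx6, Lhx8, Msx3 and Pax3. Replicate 2 lists no transcript row at 0 in both of its libraries, whereas replicate 1 does, which favours the higher direction among genes listed in both. The share over all genes below the minimum was not counted, so these counts are a listing. Lhx6, a gene of the first branchial arch and of forebrain interneurons, was at 0.096 and 0.1498 RPKM in KO2 and WT2, against 0.737 and 0.391 RPKM in KO1 and WT1, and Lhx8, of the same regions, at 0.134 and 0.1003 RPKM, against 0.430 and 0.241 RPKM. The neural crest and kidney marker sums also differed by number. The 7 listed kidney markers, of which Lhx1 and Pax2 belong to the set, summed to 29.99 and 38.8 RPKM in KO2 and WT2, against 9.42 and 9.98 RPKM in KO1 and WT1. Of these markers, Wt1, Osr1 and Foxd1 are also among the body position genes below and Wnt4 among the pathway genes. The kidney sum is thus not separate from those lists, and the part of these markers in the differences was not tested. Whether the numbers mark other embryos, other body regions, culture or sequencing runs cannot be told apart.

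Genes that work with these factors were also mostly higher in replicate 2, and none passed the test between genotypes. Of 24 partner genes (Ldb, Lmo and Ssbp genes of LIM complexes, Eya and Dach genes that act with sine oculis-type factors, the TALE genes Pknox and Tgif, and Tle corepressors), 20 were testable. In KO minus WT, 0 were called in either limma fit, and 0 had an unadjusted p below 0.05 with genotype alone. With the replicate number, 0 were higher at that p (against 4.17% of all genes tested) and 1, Lmo2, was lower (5%, against 4.93%). In both numbers 3 were above WT (15%, against 22.5% of all genes tested) and 6 below (30%, against 31.4%). By number, 14 rose in replicate 2 (70%, against 35.8%) and 1 fell (5%, against 11.9%). The 1 was Tgif1, a TALE repressor, at 35.5 and 36.0 RPKM in KO2 and WT2, against 76.1 and 66.4 RPKM in KO1 and WT1. Eya4, Lmo2 and Tle6, among the 14, met the minimum for testing through the replicate 2 libraries alone, which favours the higher direction. The minimum can bear likewise on the counts by number of the lists below. Genes reaching it in all 4 libraries were not counted apart for any of these lists. Of 45 genes of the BMP, Hedgehog, FGF, Wnt and retinoic acid pathways, 31 were testable and 0 were called in KO minus WT in either limma fit. At an unadjusted p below 0.05 there were 0 with genotype alone (0.278% of all genes tested higher, 0.0897% lower). With the replicate number, 3 were higher (9.68%, against 4.17%) and 3 lower (9.68%, against 4.93%) at that p. In both numbers 10 were above and 10 below WT (32.3% each, against 22.5% and 31.4% of all genes tested). By number, 17 of them rose in replicate 2 (54.8%, against 35.8%) and 8 fell (25.8%, against 11.9%).

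Of 19 other genes of body position (Tbx, Fox, Hand, Osr, Twist, Gata and similar factors), 17 were testable, and 0 were called in KO minus WT in either limma fit. At an unadjusted p below 0.05 there were 0 with genotype alone (0.278% of all genes tested higher, 0.0897% lower). With the replicate number, 1 was higher (5.88%, against 4.17%) and 5 were lower (29.4%, against 4.93%) at that p. In both numbers 9 were below WT (52.9%, against 31.4% of all genes tested) and 3 above (17.6%, against 22.5%). Foxc1, Foxc2 and Foxd1, forkhead factors of mesoderm and kidney stroma, were at least 1.5-fold lower in KO in both numbers (3 of 17, or 17.6%, against 0.825%). Foxd1 was at 1.23 and 3.17 RPKM in KO1 and KO2, against 2.36 and 6.59 RPKM in WT1 and WT2 (-0.72 in replicate 1 and -0.95 in replicate 2, mean -0.84, SE 0.18, adjusted p = 0.076 in limma with the replicate number). Foxc2 was at 12.6 and 4.44 RPKM in KO, against 23.2 and 7.17 RPKM in WT cells, and Foxc1 at 4.16 and 12.3 RPKM, against 7.18 and 18.8 RPKM (adjusted p = 0.088 and 0.137 in the same limma fit). Foxc2 differed by -0.86 in replicate 1 and -0.64 in replicate 2, and Foxc1 by -0.72 and -0.59. By number, 12 of the 17 rose in replicate 2 (70.6%, against 35.8%) and 2 fell (11.8%, against 11.9%), Foxc2 and Foxf2; as with the Msx genes, Foxc1 and Foxc2 moved in opposite directions.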

How the data were processed

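The labels describe 22 samples; the 4 RNA libraries were used and the other 18 are not analysed here. Per the labels' protocols, DNase-treated total RNA was depleted of ribosomal RNA, poly-A RNA was selected, and sequencing used an Illumina Genome Analyzer IIx. The authors deposited RPKM values for each RefSeq transcript; the deposited readme names Cufflinks, and the submitters' processing notes name Partek and the build mm9. Neither the aligner nor the handling of multi-mapped reads is given in the sources used here.

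Transcript rows were summed per gene symbol (Python 3.11.15, pandas 2.3.3), which gave 16266 genes in all 4 libraries. Of these, 11147 reached 0.5 RPKM in at least 2 libraries and entered limma 3.58.1 (R 4.3.3, lmFit and eBayes with a robust variance trend) as log2(RPKM + 0.5), two-sided, with Benjamini-Hochberg adjustment over all of them and a threshold of 0.05. Fold changes on this scale understate the change of low genes. Genotype was the only term of the planned fit. A second fit adds the replicate number; it leaves 1 residual degree of freedom per gene and depends largely on the variance estimated over all genes (prior degrees of freedom 9.70). Same-numbered libraries deviated together from their genotype means (correlation 0.875), but with 2 pairs and no statement in the labels the numbers are not taken as a pairing. Over the 34 genes of the set tested, the standard errors of the fit with the number ran from 0.16 to 0.59 on the log2 scale, against 0.29 to 1.89 with genotype alone. Mapped reads were taken from whole-read steps at 16 to 37 olfactory receptor genes per library, all whole within 0.02 of a read; intervals for single values were not made.

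The genes, families and comparison lists were chosen with earlier results of these data known. Named genes are those past the threshold, those at least 1.5-fold on the same side in both numbers, the 12 highest, the 10 with the largest difference between numbers, untested genes that reached 0.5 RPKM, and relatives given by level; genes with an unadjusted p below 0.05 were named after their values were seen. Some genes of the set enter the counts but are not reported singly here. Symbols of 81 of 81 genes matched RefSeq (GRCm38.p6) by accession. Alternatives changed the pseudocount, the minimum, the scaling, the transcript row used, the replicate term and the libraries included.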

Additional observations from a re-analysis of the deposited data

How the results depend on the processing

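The replicate number as a second term (the replicate block) raised the KO minus WT calls over all genes to 75, against 0 without it, and called 0 homeobox or Pax genes in either fit. With the block, the calls over all genes were 40 with a pseudocount of 0.1, 59 with 1, 70 with a minimum of 1 RPKM, 102 with median-ratio scaling, 185 with quantile normalization, 3 with the transcript row of the highest mean and 0 with no minimum on low values (16266 genes). Quantile normalization with the block called 1 gene of the set (Pitx1), 1 signalling gene (Bmpr1b, higher in KO) and 2 body position genes (Foxc2 and Foxd1, lower). The median KO minus WT difference of the set was -0.0075 without a minimum on low values, over 72 genes, with or without the block. Leaving out 1 library with genotype as the only term gave a median of -0.84 to 0.43, negative without KO2 or WT1 and positive without KO1 or WT2. Pitx1 ranged from -2.43 to 0.018 (positive without KO1) and Dlx5 from -1.43 to 0.17 (0.15 without KO1, 0.17 without WT2). Each of these fits mixes part of the difference between numbers into the difference between genotypes, so the changes of sign decide nothing about KO minus WT. For replicate 2 minus replicate 1, leaving out 1 library, with the number as the only term, gave 2101 to 4508 calls over all genes and 12 to 29 in the set, lowest without WT2 (2101 and 12) and then KO2 (2713 and 18); in both cases 0 of the calls in the set were lower, against 2 with all libraries. Pitx1, Alx1 and Dlx5 then missed the threshold without WT2, and Pitx1 and Alx1 without KO2. The causes were not tested. Genes below 0.1 RPKM in every library rest on fewer reads, and they entered a test only in the setting with no minimum on low values.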

Other observations

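Homeobox genes outside the set and outside the Hox clusters, such as the Zeb, Zhx, Tshz, Pou and Satb genes, were read from a list of 90, of which 26 were testable. In KO minus WT, 14 of them lay above WT within both replicate numbers (53.8%, against 22.5% of all genes tested) and 5 below (19.2%, against 31.4%). None of the 26 was called in either limma fit, and 0 had an unadjusted p below 0.05 with genotype alone. With the replicate number, 2 were higher at that p (7.69%, against 4.17% of all genes tested) and 2 lower (7.69%, against 4.93%). The difference from the set was not tested. Zeb1, a repressor that maintains the mesenchymal state, was at 15.3 and 15.0 RPKM in KO1 and KO2 and at 13.6 and 12.5 RPKM in WT1 and WT2. Zeb2, its relative, was at 7.20 and 7.11 RPKM in KO and 7.04 and 5.13 RPKM in WT cells. In both Zeb genes, as in Vax2, both KO libraries lay above both WT libraries (3 of 26, or 11.5%, against 6.1% of all genes tested). Hlx, at 3.56 and 4.49 RPKM in KO and 5.21 and 6.86 RPKM in WT cells, was the reverse (1 of 26, or 3.85%, against 7.32%). Adnp, the most abundant of the list, was at 23.3 and 36.3 RPKM in KO and 21.4 and 31.1 RPKM in WT cells. By replicate number, 14 of the 26 rose in replicate 2 (53.8%, against 35.8%) and 1 fell (3.85%, against 11.9%), Cux1. Gsc, among the 14, met the minimum for testing through the replicate 2 libraries alone, which favours the higher direction.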
